A study of Homo sapiens with 24 samples.

Results

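The genes described here are 7 core genes of the RAS, RAF and MAP kinase cascade: the RAS GTPases NRAS and HRAS, the RAF kinases BRAF and ARAF, the MEK kinases MAP2K1 and MAP2K2, and the ERK kinase MAPK3. They were chosen by name, and all 7 were found among the 58174 genes listed for each cell line and passed the filter on low values in each. Other core genes of the cascade were not analysed here, while more distant relatives are described with the surrounding pathway genes. The question of the comparison was which of these mRNAs change when the RNA-binding protein IGF2BP1 is depleted from cancer cells.

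The cascade carries growth signals from receptors at the cell surface to the nucleus. A RAS protein loaded with GTP recruits a RAF kinase to the membrane, RAF phosphorylates MEK, MEK phosphorylates ERK, and ERK phosphorylates transcription factors and other kinases. Many tumours carry an activated form of one of its members. IGF2BP1 belongs to the oncofetal proteins, silent in most adult tissues and present in many cancers. It binds mRNAs, mostly in the 3'UTR, and is known to shield some of them from decay, including decay directed by microRNAs of the let-7 family.

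The RNA-seq libraries, from total RNA depleted of ribosomal RNA, were made from 4 human cancer cell lines, each transfected with control siRNA (siC) or an IGF2BP1-directed siRNA pool (siI1). The lines came from a lung adenocarcinoma (A549), an ovarian clear cell adenocarcinoma (ES2), an amelanotic melanoma (MV3) and a pancreatic ductal adenocarcinoma (PANC1), and cells were harvested 72 h after transfection, or 96 h in PANC1. There were 3 biological replicates in each of the 8 groups, 24 libraries in all, without any untransfected cells. Each line was 1 cell line of its cancer type and had its own table, normalised on its own, so levels were compared within a line and only fold changes between lines.

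Levels are in FPKM, fragments per kilobase of gene length, as listed in the tables, divided by the size of the library. Log2 fold changes compare siI1 with siC on the log2(FPKM + 0.5) scale, are given with their standard error (SE), and were called past an adjusted p of 0.05 in limma over all genes tested in the line. A library held 3105215 to 4553326 assigned reads in A549, 6421764 to 8419467 in ES2, 15572492 to 20082702 in MV3 and 6532175 to 8472851 in PANC1. A member had 54 to 499 reads in a library of A549 and 264 to 2973 in one of MV3, the most deeply sequenced line. The targeted gene, IGF2BP1, fell in each line, with log2 fold changes of -1.32, -1.55, -1.52 and -1.83 in A549, ES2, MV3 and PANC1. The keratin genes KRT8, KRT18 and KRT19 were at 52.3 FPKM or more in every library of A549 and PANC1. The other epithelial markers, EPCAM and CDH1, were lower there. EPCAM was at 0.784 to 1.73 FPKM in A549 and 1.39 to 3.92 in PANC1, and CDH1 at 8.36 to 18.9 and 0.816 to 4.83. KRT7, a duct keratin, was at 1.83 to 3.59 FPKM in PANC1 and at 100 to 160 FPKM in ES2, where KRT18 was at 34.5 to 49.4 FPKM. The lung markers NKX2-1 and SFTPB were listed at 0 in all 6 A549 libraries and the melanocyte markers SOX10, TYR and DCT at 0 in all 6 MV3 libraries. In ES2 the ovarian markers PAX8 and WT1 were low, at 0.0618 to 0.262 FPKM and 0.0288 to 0.151 FPKM. The summed level of 5 epithelial markers went from 759 to 840 FPKM in siC to 378 to 403 in siI1 in A549, and from 1340 to 1760 FPKM in siC to 2060 to 2210 in siI1 in PANC1. In PANC1 the FPKM sum of all genes also rose, from 526300 to 756400 in siC to 977500 to 1192000 in siI1. The rise of the epithelial markers there thus depends on the scaling. In ES2 the summed level of 3 endothelial markers went from 8.62 to 11.4 FPKM in siC to 14.6 to 16.4 in siI1. Nearly all of it was CDH5, at 8.32 to 16.1 FPKM over both groups, with PECAM1 at 0.268 to 0.393 and VWF at 0 to 0.038. The part of these shifts in the results was not tested. In bulk RNA, fewer cells of a type and less RNA per cell cannot be told apart.

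The 7 transcripts differ in the length of the 3'UTR and in base composition. In the canonical transcripts of GENCODE release 44 (hg38), the 3'UTR, the untranslated part behind the coding sequence, had 3625 nt in NRAS and 3932 nt in BRAF. It had 929 nt in MAP2K1, 636 in MAPK3, 451 in ARAF, 286 in HRAS and 277 in MAP2K2, against a median of 1072 nt over protein-coding genes. The members with long 3'UTRs were also those poor in G and C: transcript GC content was 37.4% in NRAS and 41.1% in BRAF, 51.2% in MAP2K1, and from 59.0% in ARAF through 61.0% in MAPK3 and 64.3% in HRAS to 65.4% in MAP2K2. RAS mRNAs are textbook targets of let-7. The mature let-7a is shown, from RefSeq (GRCh38.p14), with its seed, bases 2 to 8, in capitals, together with the stretch of the NRAS 3'UTR that holds the matching 7 bases, also in capitals.
hsa-let-7a-5p: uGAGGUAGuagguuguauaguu
NRAS 3'UTR site: gaagttctcagaataaCTACCTCc
This site lies at chr1:114707901-114707924 (hg38, minus strand), with the match starting at base 186 of the NRAS 3'UTR. The motif searched was CTACCTC, on the transcript strand. It was found once in NRAS and in none of the 3'UTRs of the other 6 members, and 9.80% of 19461 protein-coding 3'UTRs held it. A match is a description of the sequence only.

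Upon IGF2BP1 depletion, 6 of the 7 genes changed in at least 1 line, as did 60.7% of the 12816 genes tested in all lines. Both MEK genes fell in ES2 and MV3, while on the deposited scale neither the RAS pair nor the RAF pair was called in 1 direction in any line. MAP2K2 fell in 3 lines. NRAS fell in MV3 and PANC1, BRAF in A549 and PANC1, and MAP2K1 in ES2 and MV3. HRAS rose in PANC1, MAP2K1 in A549, and MAPK3 in MV3 and PANC1, whereas ARAF passed the test in none. In A549, 2 of 7 members were called lower and 1 higher, where 13.8% of the 18411 genes tested were called (7.83% lower and 5.93% higher). ES2 had 2 lower and 0 higher against 23.5% of 16920 genes (13.0% lower and 10.5% higher). MV3 had 3 lower and 1 higher against 35.7% of 16380 genes (19.5% lower and 16.3% higher), and PANC1 2 lower and 2 higher against 24.8% of 15846 genes (13.4% lower and 11.3% higher). With 7 genes, these counts are a description of the members and not of a trend. The members had median log2 fold changes of -0.13, -0.31, -0.12 and -0.01 in A549, ES2, MV3 and PANC1, and that of all genes tested lay between -0.04 in PANC1 and 0.01 in MV3.

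**Figure D1:**
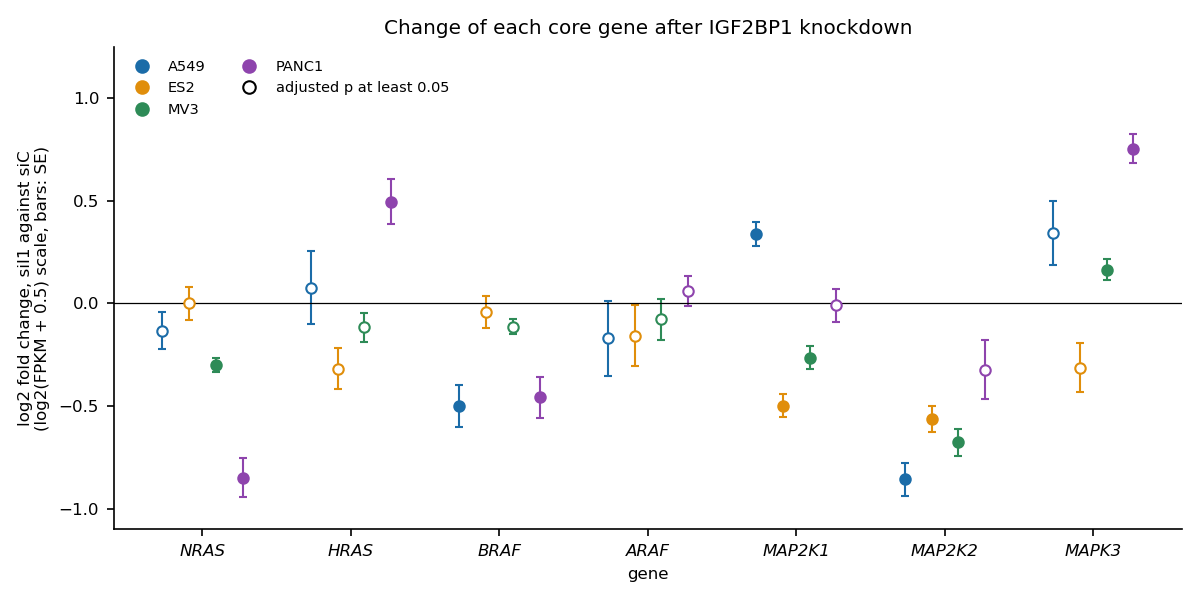
Log2 fold change of each core gene, siI1 against siC, on the log2(FPKM + 0.5) scale with its SE, for A549, ES2, MV3 and PANC1 (3 libraries a group); filled points have an adjusted p under 0.05 in limma. MAP2K2 lies below 0 in all 4 lines, while NRAS at -0.85 and MAPK3 at 0.75 mark the ends of PANC1; under same-sum scaling of the libraries, HRAS and ARAF in PANC1 and BRAF in ES2 change sign.

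NRAS (ENSG00000213281, chr1:114704469-114716771, minus strand; gene coordinates are hg38 from GENCODE release 44) encodes a membrane-bound GTPase that switches RAF kinases on. In PANC1 the siC libraries had 41.0, 35.9 and 33.1 FPKM and the siI1 libraries 19.0, 21.7 and 19.6 FPKM. No siI1 library came near the lowest siC library, and the mean fell by 45.3% (log2 fold change -0.85 ± 0.09 SE, adjusted p = 0.00242). In MV3 the siC libraries had 31.1, 32.0 and 30.3 FPKM against 25.9, 24.5 and 25.2 FPKM in siI1. The groups were again apart, and the mean fell by 19.0% (log2 fold change -0.30 ± 0.03, adjusted p = 0.00126). The calls in MV3 and PANC1 held without any 1 library and under all 9 other settings. In A549, siC libraries of 22.8, 20.1 and 20.9 FPKM and siI1 libraries of 19.0, 17.6 and 21.4 FPKM overlapped (log2 fold change -0.13 ± 0.09, adjusted p = 0.400). In ES2 the means were 26.9 ± 2.71 FPKM (SD, n = 3) in siC and 26.8 ± 1.12 FPKM in siI1, with a log2 fold change of 0.0013 ± 0.08 (adjusted p = 0.993).

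HRAS (ENSG00000174775, chr11:532242-537321, minus strand) encodes the second RAS GTPase of the set. PANC1 had 20.2, 18.9 and 16.6 FPKM in siC and 24.3, 30.1 and 24.8 FPKM in siI1. The lowest siI1 library stood above the highest siC library. HRAS rose by a log2 fold change of 0.50 ± 0.11 (adjusted p = 0.0208) on the deposited scale and stood at -0.24 once all libraries were scaled to the same FPKM sum, where the median of all genes moved from -0.04 to -0.68. Relative to that median HRAS was higher by 0.53 and 0.44 log2 units before and after that scaling. The rise was not called without siC replicate 3 (adjusted p = 0.0544), nor after a correction for GC content (log2 fold change 0.33, adjusted p = 0.0608). The FPKM sums behind the scalings were 526300 to 756400 in the siC and 977500 to 1192000 in the siI1 libraries of PANC1, against 376400 to 613100 in the other lines. HRAS in ES2 stood at 9.41, 10.2 and 8.30 FPKM in siC and 7.88, 6.58 and 7.60 in siI1, apart but not past the threshold (log2 fold change -0.32 ± 0.10, adjusted p = 0.0688). It was at 9.51 ± 1.61 and 10.1 ± 1.98 FPKM in A549 and at 26.5 ± 1.28 and 24.5 ± 2.15 FPKM in MV3, in siC and siI1, with overlapping libraries in each (adjusted p = 0.836 and 0.245). After GC correction HRAS in MV3 was called lower (log2 fold change -0.20, adjusted p = 0.0169), though not with a replicate block added (adjusted p = 0.063). The A549 value of HRAS rests on 64 to 86 reads per library.

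BRAF (ENSG00000157764, chr7:140719327-140924929, minus strand) encodes the RAF kinase with the strongest activity towards MEK. In A549 its level was 8.46, 9.76 and 8.04 FPKM in siC and 5.54, 6.12 and 6.42 FPKM in siI1. All siI1 libraries lay below all siC libraries, and the mean fell by 31.1% (log2 fold change -0.50 ± 0.10, adjusted p = 0.0257). This call was lost without siC replicate 1 or 2 or without any 1 of the siI1 replicates, with adjusted p-values of 0.0533 to 0.0755 and log2 fold changes of -0.54 to -0.42. In PANC1 the siC libraries had 6.13, 5.39 and 6.88 FPKM and the siI1 libraries 4.07, 4.37 and 4.49 FPKM. The groups did not overlap, and the mean fell by 29.7% (log2 fold change -0.46 ± 0.10, adjusted p = 0.0209). Without siC replicate 1 or 3 or siI1 replicate 1 or 2 its adjusted p lay between 0.0518 and 0.0713, and after GC correction BRAF stood at -0.29 (adjusted p = 0.0604). MV3 gave 6.97, 6.94 and 6.96 FPKM in siC and 6.38, 6.31 and 6.49 in siI1, with no overlap and a log2 fold change of -0.11 ± 0.04 that just missed the threshold (adjusted p = 0.0553). BRAF in MV3 was called lower in 2 of 9 other settings. These were a filter of 1 FPKM (adjusted p = 0.0447) and limma voom on the recovered reads (adjusted p = 0.0466). ES2 had 7.63 ± 0.30 FPKM in siC and 7.42 ± 0.64 in siI1, with overlapping libraries (adjusted p = 0.759). Of the exonic bases of BRAF, 5.3% (1239 bases) also belong to NDUFB2 on the other strand, and whether reads were counted by strand is not given in the sources used here.

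ARAF (ENSG00000078061, chrX:47561205-47571908, plus strand) encodes a RAF kinase of lower activity. Its siC and siI1 libraries overlapped in all 4 lines, with log2 fold changes of -0.17 ± 0.18, -0.16 ± 0.15, -0.08 ± 0.10 and 0.06 ± 0.07 in A549, ES2, MV3 and PANC1. The adjusted p-values were 0.5 to 0.612. In A549 the siC libraries had 7.42, 9.74 and 10.3 FPKM and the siI1 libraries 10.2, 7.22 and 6.95, so that 1 library of each group sat with the other group. The same-sum scaling gave ARAF in PANC1 a log2 fold change of -0.65 (adjusted p = 0.0103), 0.03 above the median of all genes on that scale.

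**Figure D2:**
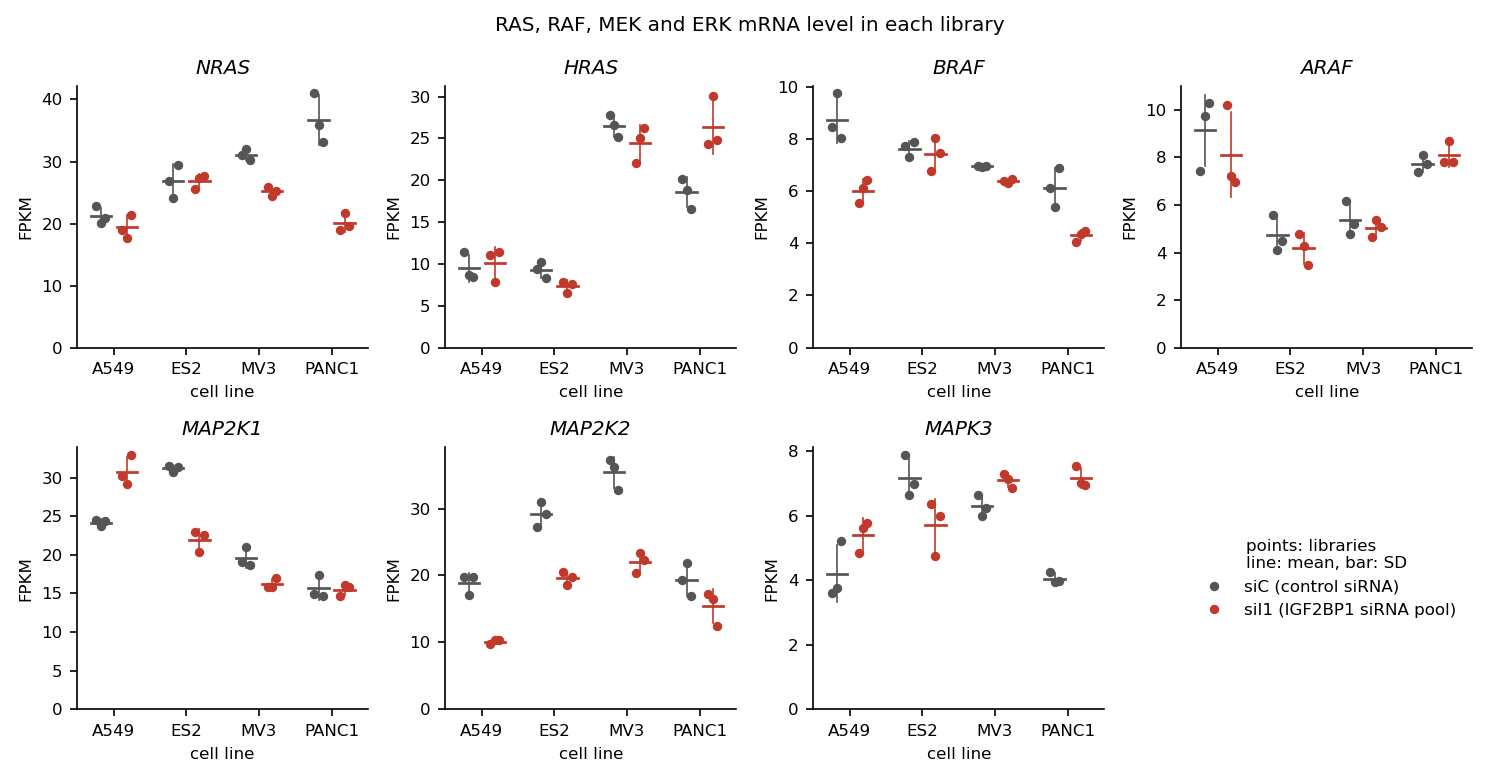
FPKM of the 7 core genes in each library (y axis, linear from 0) for A549, ES2, MV3 and PANC1 (x axis), with siC in grey and siI1 in red; horizontal lines are means and vertical bars SD over 3 libraries. MAP2K2 is lower in siI1 in A549, ES2 and MV3 without overlap, and MAP2K1 is lower with it in ES2 and MV3 and higher in A549.

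MAP2K1 (ENSG00000169032, chr15:66386837-66491656, plus strand) encodes MEK1, one of the dual-specificity kinases that phosphorylate ERK. In ES2 it had 31.6, 30.8 and 31.4 FPKM in siC and 23, 20.4 and 22.6 FPKM in siI1. The gap between the groups was larger than the whole spread within either, and the mean fell by 29.6% (log2 fold change -0.50 ± 0.06, adjusted p = 0.00201). In MV3 the siC libraries had 19.1, 21.0 and 18.7 FPKM and the siI1 libraries 15.8, 15.9 and 17.0. These too were apart, and the mean fell by 17.3% (log2 fold change -0.27 ± 0.06, adjusted p = 0.0119). A549 went the other way, from 24.5, 23.7 and 24.4 FPKM in siC to 30.2, 29.2 and 33.0 FPKM in siI1. Every siI1 library was above every siC library, and MAP2K1 rose by a log2 fold change of 0.34 ± 0.06 (adjusted p = 0.0167). The A549 call was lost without any 1 of the siC replicates (adjusted p = 0.0519 to 0.0567), with log2 fold changes of 0.29 to 0.37 over all libraries left out in turn. PANC1 overlapped at 15.7 ± 1.51 and 15.5 ± 0.69 FPKM (log2 fold change -0.01 ± 0.08, adjusted p = 0.950), and stood at -0.74 under same-sum scaling (-0.06 relative to the median of all genes). A lncRNA and SNAPC5 on the other strand share 20.5% and 3.3% of the exonic bases of MAP2K1.

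MAP2K2 (ENSG00000126934, chr19:4090321-4124122, minus strand) encodes MEK2, which acts beside MEK1. It was the member that fell in the most lines. In A549 the siC libraries had 19.8, 17.0 and 19.7 FPKM and the siI1 libraries 9.73, 10.3 and 10.3 FPKM, and in MV3 the siC libraries had 37.3, 36.2 and 32.8 FPKM and the siI1 libraries 20.3, 23.3 and 22.3 FPKM. In ES2 the level was 27.3, 31.0 and 29.2 FPKM in siC and 20.5, 18.5 and 19.7 FPKM in siI1. In each of these lines the siC and siI1 libraries were well apart. The mean fell by 46.1% in A549 (log2 fold change -0.86 ± 0.08, adjusted p = 0.00208), fell by 32.9% in ES2 (-0.56 ± 0.06, adjusted p = 0.00215) and fell by 38.0% in MV3 (-0.68 ± 0.07, adjusted p = 0.000739). These 3 calls held without any 1 library and under all 9 other settings. In PANC1 the siC libraries had 19.3, 21.8 and 16.9 FPKM and the siI1 libraries 17.2, 16.4 and 12.5, with 1 siI1 library above the lowest siC library (log2 fold change -0.32 ± 0.14, adjusted p = 0.151). MAP2K2 was called lower there in 4 of 9 other settings. These were limma voom on the recovered reads (log2 fold change -0.33, adjusted p = 0.0304) and GC correction (-0.49, adjusted p = 0.0433). The others were GC correction with a replicate block (-0.49, adjusted p = 0.0293) and same-sum scaling (-1.06, adjusted p = 0.00132). On that last scale it lay at -0.38 relative to the median of all genes. Of the 12816 genes tested in all 4 lines, 7.19% were called lower in at least 3, as MAP2K2 was, and 3.19% higher in at least 3, as none of the members was.

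MAPK3 (ENSG00000102882, chr16:30114105-30123506, minus strand) encodes ERK1, the kinase at the end of the cascade, and was among the 2 least abundant members of A549 and PANC1 in both conditions. In PANC1 it had 4.24, 3.94 and 3.96 FPKM in siC and 7.53, 7.02 and 6.95 FPKM in siI1. The siI1 libraries were higher by far more than the spread within a group, and MAPK3 rose by a log2 fold change of 0.75 ± 0.07 (adjusted p = 0.00166). That call held without any 1 library. It was lost under same-sum scaling (log2 fold change 0.06, adjusted p = 0.782), while relative to the median of all genes MAPK3 was higher by 0.79 and 0.74 log2 units before and after that scaling. In MV3 the siC libraries had 6.65, 6.0 and 6.23 FPKM and the siI1 libraries 7.30, 7.15 and 6.87. The groups were apart by a small step, with a log2 fold change of 0.16 ± 0.05 at the threshold (adjusted p = 0.0496). This MV3 call held in 1 of 6 fits with a library left out, that without siC replicate 1, and in 3 of 9 other settings. In ES2 MAPK3 stood at 7.89, 6.65 and 6.99 FPKM in siC and 6.35, 4.76 and 6.0 in siI1, without overlap and short of the threshold (log2 fold change -0.31 ± 0.12, adjusted p = 0.116). By limma voom on the recovered reads MAPK3 was called lower there (log2 fold change -0.33, adjusted p = 0.034). In A549 it stood at 3.61, 3.77 and 5.22 FPKM in siC and 4.83, 5.63 and 5.77 in siI1, with overlap (log2 fold change 0.34 ± 0.16, adjusted p = 0.218), on 54 to 94 reads a library.

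The groups did not overlap for 3, 4, 5 and 4 of the 7 members in A549, ES2, MV3 and PANC1. Over all genes tested, 34.0%, 42.1%, 50.4% and 43.2% had groups apart in these lines. In direction, 2 members were apart downwards and 1 upwards in A549, and 4 downwards and 0 upwards in ES2. MV3 had 4 downwards and 1 upwards, and PANC1 2 and 2. In the order A549, ES2, MV3 and PANC1, the shares of all genes apart upwards were 15.4%, 19.5%, 24.5% and 19.4%, and downwards 18.5%, 22.6%, 25.9% and 23.8%.

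Fold changes followed base composition over all genes, in 1 direction in PANC1 and in the other in ES2 and A549, which stands beside the values of AT-rich NRAS and BRAF and of the GC-rich members. In PANC1 the median log2 fold change went from -0.18 in the fifth of genes with the lowest GC content to 0.12 in the highest, in ES2 from 0.08 to -0.12 and in A549 from 0.06 to -0.06. In MV3 it was 0.0025 and 0.05. In PANC1, with GC-rich genes shifted upwards, AT-rich NRAS and BRAF fell, GC-rich HRAS and MAPK3 rose, and GC-rich MAP2K2 and ARAF passed the test in neither direction. In A549 and ES2, with GC-rich genes shifted downwards, GC-rich MAP2K2 fell in both and AT-rich BRAF fell in A549. AT-rich NRAS and GC-rich HRAS, ARAF and MAPK3 were called in neither of these lines, and BRAF was not called in ES2. After a correction within 20 bins of GC content, PANC1 still called NRAS lower and MAPK3 higher, no longer called HRAS or BRAF, and called MAP2K2 lower (log2 fold change -0.49, adjusted p = 0.0433). The part of base composition in the changes of the members was not tested.

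Within a line, the members ordered by control level in 2 tiers. NRAS, MAP2K1 and MAP2K2 were at 15.7 to 36.7 FPKM in siC in each line, and BRAF, ARAF and MAPK3 at 4.05 to 9.14 FPKM. HRAS belonged to the lower tier in A549 and ES2, at 9.51 and 9.30 FPKM, and to the upper tier in MV3 and PANC1, at 26.5 and 18.6 FPKM. MAP2K1 was the highest member in A549, at 24.2 ± 0.43 FPKM, above NRAS and then MAP2K2 without overlap. It also led in ES2, at 31.3 ± 0.42 FPKM, where its range overlapped that of MAP2K2 and that of MAP2K2 overlapped NRAS. MAP2K2 led in MV3, at 35.4 ± 2.34 FPKM, and NRAS in PANC1, at 36.7 ± 4.02 FPKM, both apart from the next member. The lowest were MAPK3 in A549 and PANC1, at 4.20 ± 0.89 and 4.05 ± 0.17 FPKM and apart from BRAF above it, and ARAF in ES2 and MV3, at 4.72 ± 0.78 and 5.37 ± 0.71 FPKM. ARAF was apart from MAPK3 in ES2 and overlapped it in MV3. Upon depletion the highest member was NRAS in ES2, apart from MAP2K1, and NRAS in MV3, overlapping HRAS. It was HRAS in PANC1, apart from NRAS, and MAP2K1 in A549. FPKM here divides by the listed gene length, which is 5236 bases for MAP2K2 and 1854 for HRAS, whereas their canonical transcripts have 1727 and 1070 nt, so levels between genes depend on that length and changes of 1 gene do not.

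The ratio between paralogs within a library does not depend on the scaling of that library, and was compared without a test. It was not corrected for GC content, in which HRAS and NRAS, and ARAF and BRAF, differ. After GC correction the PANC1 log2 fold changes were 0.33 for HRAS and -0.66 for NRAS, against 0.50 and -0.85 before. Those of ARAF and BRAF were -0.03 and -0.29, against 0.06 and -0.46. In PANC1 the log2 ratio of HRAS to NRAS was -1.02, -0.92 and -1.0 in siC and 0.36, 0.48 and 0.34 in siI1. By FPKM, NRAS was thus the higher RAS mRNA of the pair in each siC library and HRAS in each siI1 library, a difference of 1.37 log2 units. The same ratio overlapped between the groups in the other lines, where the means differed by 0.22 in A549, -0.34 in ES2 and 0.18 in MV3. For ARAF to BRAF, PANC1 went from 0.34 ± 0.22 (SD, n = 3) to 0.91 ± 0.10, without overlap, and the other lines overlapped. MAP2K2 to MAP2K1 in A549 was -0.31, -0.48 and -0.31 in siC and -1.63, -1.50 and -1.67 in siI1, a difference of -1.23 log2 units. There MAP2K2 stood at 0.775 of MAP2K1 in siC and at 0.330 of it in siI1, by FPKM. Which of the 2 is higher depends on the length used, while the change between the groups does not. The listed lengths are 5236 bases for MAP2K2 and 3759 for MAP2K1, and the canonical transcripts have 1727 and 2547 nt. In MV3 the ratio went from 0.85 ± 0.10 to 0.44 ± 0.10, again apart, whereas in ES2, where both genes fell, it was -0.10 ± 0.11 and -0.17 ± 0.03.

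**Figure D3:**
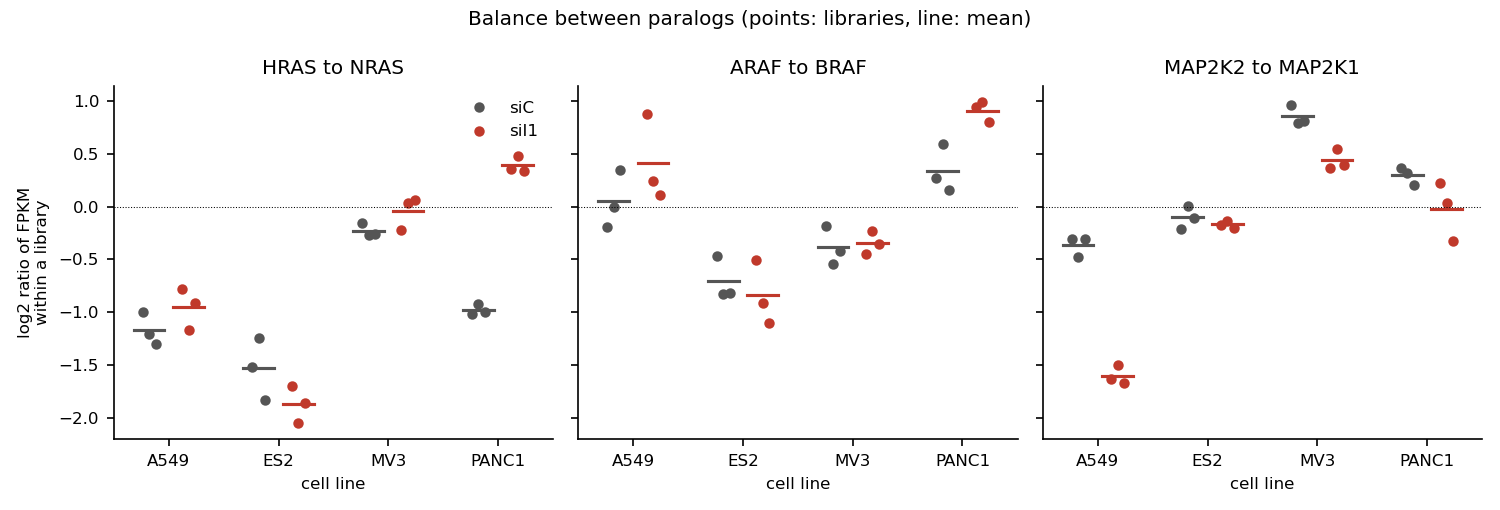
Log2 ratio of the FPKM of paralogs within a library (y axis), HRAS to NRAS, ARAF to BRAF and MAP2K2 to MAP2K1, in A549, ES2, MV3 and PANC1 (x axis), siC in grey and siI1 in red, with lines at the means of 3 libraries. HRAS to NRAS crosses 0 in PANC1, from -0.98 to 0.39, and MAP2K2 to MAP2K1 falls from -0.37 to -1.60 in A549.

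Whether the response differed between the lines was tested with Cochran's Q over the 4 fold changes, adjusted over the 12816 genes tested in all lines, of which 28.0% were called. It was called for MAP2K1 (adjusted p = 0.00814), MAPK3 (0.0123), NRAS (0.0186) and HRAS (0.0325). BRAF (0.0526), MAP2K2 (0.108) and ARAF (0.511) were not called. MAP2K1 was the member called in opposite directions, lower in ES2 and MV3 and higher in A549, which 6.03% of those genes were in any pair of lines. The HRAS call held in 2 of 24 fits with 1 library left out, with adjusted p-values of 0.0468 to 0.0651, whereas the other 3 held in all 24. Under same-sum scaling the calls of HRAS and MAPK3 were lost (adjusted p = 0.445 and 0.129), and after GC correction that of NRAS (0.0655). With the replicate number as a block none of the 4 was called (adjusted p = 0.0643 to 0.0827). BRAF was called when PANC1 siC replicate 2 was left out (adjusted p = 0.0472). The 4 lines differ in tissue of origin and PANC1 also in time of harvest, which cannot be told apart for PANC1.

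Around the core, 83 other genes of the pathway in 9 lists were counted, of which 70 to 75 were tested in a line. The lists were chosen with earlier results of these data known, so the counts only describe them and do not test for an excess. In A549, 12 of 74 were called lower and 11 higher (16.2% and 14.9%, against 7.83% and 5.93% of all genes tested). ES2 had 17 lower and 11 higher of 75 (22.7% and 14.7%, against 13.0% and 10.5%). MV3 had 27 and 15 of 72 (37.5% and 20.8%, against 19.5% and 16.3%), and PANC1 14 and 8 of 70 (20% and 11.4%, against 13.4% and 11.3%). Their median log2 fold changes were 0.06, -0.14, -0.06 and -0.03 in the same order. The genes tested include non-coding ones: 11756 of 18411 were protein-coding in A549, 11171 of 16920 in ES2, 10960 of 16380 in MV3 and 11109 of 15846 in PANC1. Under same-sum scaling, 53 of the pathway genes were called lower and 0 higher in PANC1, where 8844 of all 15846 genes tested were called lower and 95 higher. That scaling also ended, with the sign kept, the calls of CRKL, DUSP4 and EPHA2 in ES2, of DUSP6, RAP1A, RPS6KA3 and RRAS2 in MV3 and of SPRED1 and ZDHHC9 in A549 that are given below (adjusted p = 0.0571 to 0.137).

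Upstream of RAS, the adaptor gene CRKL fell in all 4 lines, with log2 fold changes from -0.46 ± 0.06 in A549 (21.1 ± 0.58 to 15.2 ± 0.61 FPKM, n = 3) to -0.31 ± 0.06 in PANC1 (adjusted p = 0.000444 to 0.0167). Under same-sum scaling CRKL in ES2 stood at -0.27 (adjusted p = 0.0645). RASGRP1, which loads RAS with GTP, fell in A549 from 4.68 ± 0.69 to 1.18 ± 0.16 FPKM (log2 fold change -1.62 ± 0.16, adjusted p = 0.00257) and had 0 to 2 reads per library in the other lines. Of 6 activators and adaptors tested in PANC1, 4 were called lower, and 2 of 8 in A549, 2 of 7 in ES2 and 2 of 7 in MV3. Among the 8 genes for RAS GTPase-activating proteins and RAS degradation, 0 to 1 were lower and 1 to 2 higher in a line. ZDHHC9, part of the enzyme that palmitoylates NRAS and HRAS, fell in A549, MV3 and PANC1 (log2 fold changes -0.41, -0.44 and -0.47). In all, 0 to 2 of the 7 RAS processing genes were called lower in a line and 0 to 2 higher. Over all genes tested, 7.83%, 13.0%, 19.5% and 13.4% were called lower in A549, ES2, MV3 and PANC1. Called higher were 5.93%, 10.5%, 16.3% and 11.3%.

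Among the related GTPase genes, RRAS rose in ES2, MV3 and PANC1 (log2 fold changes 0.61, 0.70 and 0.88, the last 0.14 and not called under same-sum scaling) and RAP1A, a relative of RAS known to bind RAF proteins, in A549, ES2 and MV3 (0.56, 0.43 and 0.17). RRAS2 rose in ES2 from 32.8 ± 0.92 to 51.7 ± 1.64 FPKM (log2 fold change 0.65 ± 0.04, adjusted p = 0.000379) and in MV3 by 0.16. MRAS fell in A549 by 0.79 and in MV3 by 0.58 on the log2 scale. Of this list of 9, 4 of 9 were called higher and 0 lower in ES2, 5 higher and 3 lower in MV3, 1 and 1 of 9 in A549 and 1 and 1 of 8 in PANC1. LAMTOR3, a scaffold that tethers MEK1, rose in A549, ES2 and MV3 (log2 fold changes 0.82, 0.59 and 0.43), on 42 to 106 reads a library in A549. In the list of scaffolds and RAF regulators, 1 to 2 of 6 or 7 were called lower in a line and 0 to 2 higher. The shares of all genes called higher were 5.93%, 10.5%, 16.3% and 11.3% in A549, ES2, MV3 and PANC1. Those called lower were 7.83%, 13.0%, 19.5% and 13.4%.

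**Figure D4:**
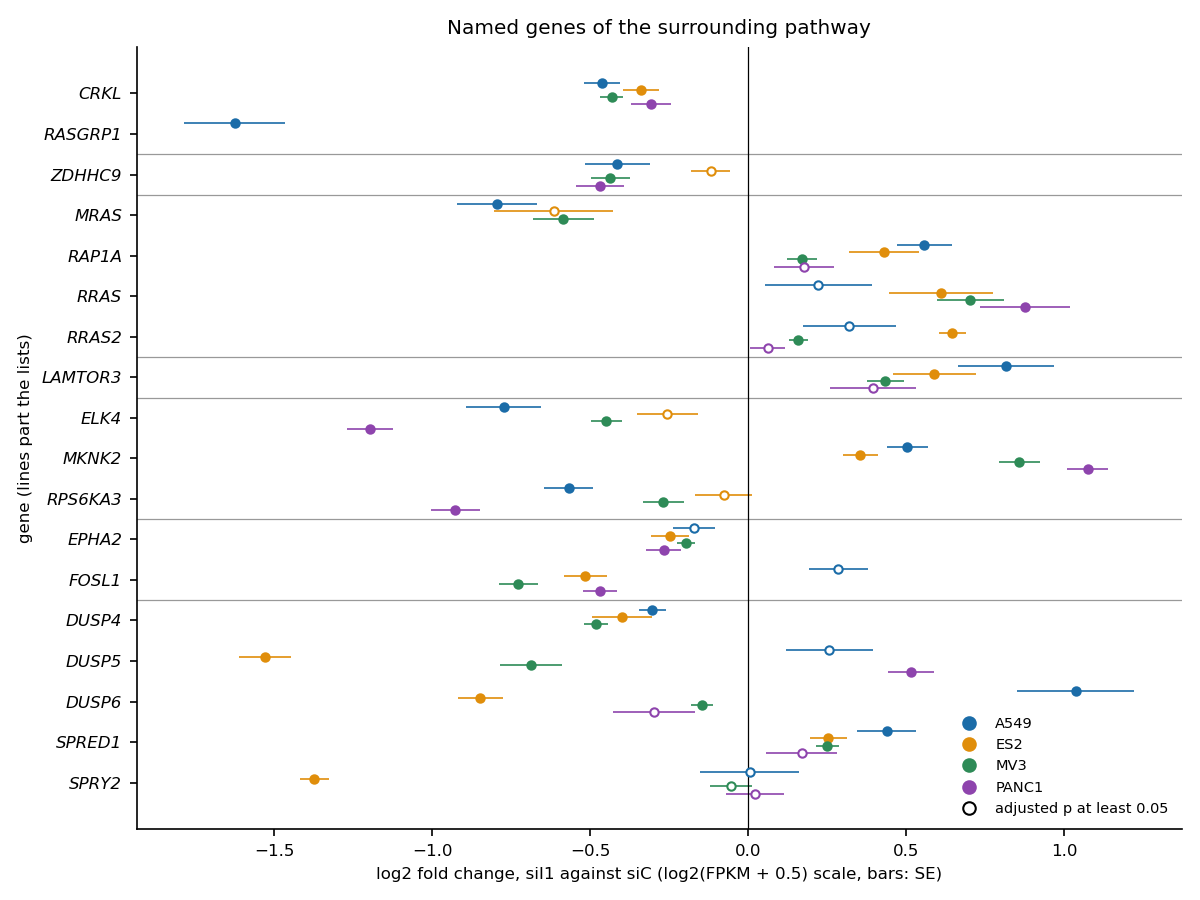
Log2 fold change, siI1 against siC, with its SE (x axis, log2(FPKM + 0.5) scale) of the pathway genes named by rule (y axis), from RAS activators at the top to ERK phosphatases and feedback inhibitors at the bottom, for A549, ES2, MV3 and PANC1 (3 libraries a group); filled points have an adjusted p under 0.05 in limma and genes below the filter in a line have no point. CRKL lies below 0 and MKNK2 above 0 in all 4 lines, whereas DUSP5 and DUSP6 spread to both sides, DUSP5 from -1.53 in ES2 to 0.52 in PANC1; under same-sum scaling DUSP5, LAMTOR3, RAP1A, RRAS2, SPRED1 and SPRY2 in PANC1 and SPRY2 in A549 change sign.

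Downstream of ERK, the substrates moved apart. MKNK2, a kinase that phosphorylates the translation factor eIF4E, rose in all 4 lines, most in PANC1, from 18.8 ± 0.44 to 40.2 ± 2.69 FPKM (log2 fold change 1.07 ± 0.06, adjusted p = 0.00061, and 0.33, adjusted p = 0.115, under same-sum scaling), and by 0.50 in A549, 0.36 in ES2 and 0.86 in MV3. RPS6KA3, which encodes the kinase RSK2, fell in A549, MV3 and PANC1 (log2 fold changes -0.57, -0.27 and -0.93). ELK4, a transcription factor that acts with SRF, fell in the same 3 lines (-0.77, -0.45 and -1.20). Of the ERK substrates tested, 3 of 7 were called lower and 2 higher in A549, and 1 of 8 and 1 in ES2. In MV3 these were 2 of 7 and 1, and in PANC1 2 of 8 and 2. Of all genes tested, 7.83%, 13.0%, 19.5% and 13.4% were called lower in A549, ES2, MV3 and PANC1. Called higher were 5.93%, 10.5%, 16.3% and 11.3%.

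Of the genes listed as transcriptional output of ERK, 6 of 9 were called lower and 0 higher in ES2, and 6 of 8 lower and 1 higher in MV3. A549 had 1 of 8 lower and 2 higher, and PANC1 2 of 7 lower and 1 higher. The share of all genes called lower was 13.0% in ES2, 19.5% in MV3, 7.83% in A549 and 13.4% in PANC1. The share called higher was 10.5% in ES2, 16.3% in MV3, 5.93% in A549 and 11.3% in PANC1. The median log2 fold change of this list was -0.36 in ES2, -0.22 in MV3, 0.16 in A549 and -0.27 in PANC1. FOSL1, an AP-1 transcription factor, fell in ES2 from 162 ± 6.95 to 113 ± 9.13 FPKM (log2 fold change -0.51 ± 0.07, adjusted p = 0.00354), in MV3 by 0.73 and in PANC1 by 0.47 on the log2 scale. EPHA2, a receptor tyrosine kinase, fell in ES2, MV3 and PANC1 by smaller steps (log2 fold changes -0.25, -0.20 and -0.27). The genes of ERK phosphatases and feedback inhibitors had 6 of 10 called lower in ES2, 5 of 10 in MV3, 1 of 10 in A549 and 0 of 9 in PANC1, and 1, 1, 2 and 1 higher. DUSP5, a nuclear ERK phosphatase, fell in ES2 from 51.8 ± 2.52 to 17.7 ± 1.83 FPKM (log2 fold change -1.53 ± 0.08, adjusted p = 0.00019). It also fell in MV3 (-0.69 ± 0.10, adjusted p = 0.00263) and rose in PANC1 (0.52 ± 0.07, adjusted p = 0.00474). Under same-sum scaling DUSP5 in PANC1 stood at -0.22 and was not called (adjusted p = 0.206). DUSP6, the cytoplasmic one, fell in ES2 from 22.3 ± 0.57 to 12.2 ± 1.13 FPKM (-0.85 ± 0.07, adjusted p = 0.000818) and rose in A549 from 2.18 ± 0.42 to 5.01 ± 0.95 FPKM (1.04 ± 0.19, adjusted p = 0.0171). The A549 rise rests on 35 to 105 reads a library. In MV3 DUSP6 fell by a smaller step (-0.15 ± 0.04, adjusted p = 0.0205). SPRY2, an inhibitor of receptor signalling to RAS, fell in ES2 from 44.8 ± 1.51 to 17.0 ± 0.48 FPKM (-1.37 ± 0.05, adjusted p = 6.28e-05) and was not called in the other lines. DUSP4, another nuclear phosphatase, fell in A549, ES2 and MV3 (-0.30, -0.40 and -0.48). Against these, SPRED1, a partner of the RAS GTPase-activating protein neurofibromin, rose in A549, ES2 and MV3 (0.44, 0.25 and 0.25). The difference of these counts between lines was not tested. The last list, 14 other MAP kinases and their kinases, had 1 of 12 tested called lower and 1 higher in A549. ES2 had 1 of 12 and 0, MV3 5 of 11 and 1, and PANC1 2 of 11 and 1.

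The genes most like each member were sought among 9650 protein-coding genes, by Pearson r over the 24 libraries after the mean of each line had been subtracted. The points share the contrast, so r mostly reflects the 4 fold changes. For NRAS they were UGDH (r = 0.937) and ARHGAP11A (r = 0.917), and for BRAF OSBPL8 (r = 0.951) and ROCK2 (r = 0.944). For MAP2K2 they were MLF2 (r = 0.964) and EXTL3 (r = 0.959), and EXTL3 had log2 fold changes of -1.33, -1.04, -0.87 and -0.52 in A549, ES2, MV3 and PANC1. The pattern of MAP2K1 was nearest to that of MT2A (r = 0.917), a metallothionein with log2 fold changes of 0.90, -0.97, -0.71 and -0.03 in the same order, and to that of PHLDA1 (r = 0.900), which is in the list of ERK output. For HRAS the nearest were UBL5 (r = 0.844) and COA4 (r = 0.835), for MAPK3 FAAP20 and AGTRAP (both r = 0.871), and for ARAF, which hardly moved, TSHZ3 (r = 0.691) and SVBP (r = 0.686). Among the members, NRAS and BRAF went together (r = 0.674), and MAPK3 ran against both (r = -0.752 with NRAS and -0.738 with BRAF). The values were not corrected for GC content, in which AT-rich NRAS and BRAF differ from GC-rich MAPK3. MAP2K1 and MAP2K2 were only weakly related (r = 0.223).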

How the data were processed

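Total RNA-seq of 24 libraries was analysed. Per the labels and the study's methods, the authors clipped reads with cutadapt (version 1.14), aligned them to hg38 with HISAT2 (2.1.0) and SAMtools (1.5), counted them with featureCounts (1.5.3) on an Ensembl annotation, and tested with edgeR (3.30.3) and TMM. The values deposited by the authors are FPKM, a unit worked out from the values: 100% were whole multiples, within 0.01 read, of a step fixed within each library. The authors' fold change, p-value and FDR columns were not used. Groups came from the sample titles. Over the 24 replicate pairs the chi-square per gene was 1.54 to 15.1, so each library was counted once.

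Per line, genes whose 6 libraries averaged 0.5 FPKM or more were tested two-sided in limma (3.58.1, R 4.3.3; eBayes with trend) on log2(FPKM + 0.5), which understates the change of low genes, with Benjamini-Hochberg adjustment and a threshold of 0.05. Cochran's Q, divided by its 3 degrees of freedom, was referred to an F distribution. Groups were called apart where their libraries did not overlap. Members and lists were chosen with earlier results of these data known. The genes named are the members, IGF2BP1, pathway genes called in 1 direction in at least 3 lines, the 2 largest rises and 2 largest falls of the pathway lists in each line, and the 2 genes most like each member. Alternatives were pseudocounts of 0.1 and 1, no filter or a filter of 1 FPKM, scaling to the same sum, a replicate block, leaving out each library, and limma voom on the recovered reads with the library totals that the values imply. A correction for GC content was chosen after seeing the data. Transcripts are from GENCODE release 44, a newer annotation than the authors'. The tests were tested on simulated data: of 100 genes changed by 1 log2 unit, 57 were recovered in A549 (18411 genes), 86 in ES2 (16920), 86 in MV3 (16380) and 64 in PANC1 (15846). Of 100 genes changed by 0.5, those recovered were 13, 25, 41 and 12. False calls numbered 25, 27, 6 and 15 in the same order. Tables and figures were made in Python (3.11.15) using pandas (2.3.3), numpy (2.4.6), scipy (1.17.1) and, for plots, matplotlib (3.10.9). One gene of the cell type marker lists is not reported here.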

Additional observations from a re-analysis of the deposited data

Results flagged for a closer look

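The change upon IGF2BP1 depletion differed between the 4 lines for 4 of the 7 members, by Cochran's Q on the limma fits, adjusted over all genes tested. MAP2K1 had an adjusted p of 0.00814, with log2 fold changes of 0.34, -0.50, -0.27 and -0.01 in A549, ES2, MV3 and PANC1. MAPK3 had 0.0123, with 0.34, -0.31, 0.16 and 0.75 in the same order. NRAS had 0.0186, with -0.13, 0.0013, -0.30 and -0.85. HRAS had 0.0325, with 0.08, -0.32, -0.12 and 0.50. Of all genes tested in the 4 lines, 28.0% were called by this test. No group had enough libraries to look for single libraries far from the rest.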

How the results depend on the processing

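With all libraries kept, the count of lower members in a line stayed the same or nearly so in 34 fits and moved in 2. That of higher members stayed in 26 and moved in 10. With 1 library left out, each stayed in 15 fits and moved in 9. Small shifts were not counted as moved. In MV3 the 3 lower members became 4 with voom and 2 with the block and GC correction. Under same-sum scaling PANC1 had 5 members lower and 0 higher, where 8844 of the 15846 genes tested were called lower and 95 higher. Under GC correction, with or without the replicate block, PANC1 had 1 member higher. The 1 higher member of MV3, MAPK3, was lost (0 higher) with no filter, same-sum scaling, limma voom, GC correction, and the block alone or with it. With 1 library left out, lower members ranged from 1 to 2 in A549 and 1 to 2 in PANC1, and higher members from 0 to 1 in A549, 0 to 1 in MV3 and 1 to 2 in PANC1. Fewer samples enter those fits.

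Pathway genes called lower became 11 in ES2 and 53 in PANC1 under same-sum scaling, and 26 in ES2 with voom. Those called higher became 7 in A549, 8 in MV3 and 0 in PANC1 under same-sum scaling, and in PANC1 5 with no filter and 13 under GC correction. With 1 library left out, those lower ranged from 7 to 10 in A549 and 8 to 13 in PANC1, and those higher from 3 to 10 in A549, 6 to 9 in ES2, 9 to 14 in MV3 and 3 to 8 in PANC1.

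For the difference between lines, adjusted p-values were 0.0655 for NRAS under GC correction, 0.0541 for HRAS with no filter, and 0.445 for HRAS and 0.129 for MAPK3 under same-sum scaling. BRAF came to 0.0435 with a filter of 1 FPKM, 0.0294 under same-sum scaling, 0.00402 with voom and 0.0412 under GC correction. MAP2K2 came to 0.0330 under same-sum scaling, 0.0267 with voom and 0.0222 under GC correction. With 1 library left out, HRAS ranged from 0.0468 to 0.0651 and BRAF from 0.0472 to 0.0975.

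Replicate numbers did not pair the samples: over 12 pairs with the same number, deviations correlated by -0.0562 to 0.0711. With the number as a block, A549 had 1 member lower and 0 higher, and 4 pathway genes lower and 3 higher (7 and 7 with the block and GC correction). The adjusted p between lines became 0.0712 for NRAS, 0.0827 for HRAS, 0.0643 for MAP2K1 and 0.0643 for MAPK3, and with GC correction 0.0882 for NRAS, 0.104 for HRAS and 0.0570 for MAPK3.

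Signs turned as follows, by log2 fold change. NRAS in ES2 came to -0.10 under GC correction, with or without the block, to -0.0002 with voom, and to -0.07 to 0.07 with 1 library left out. BRAF in ES2 came to 0.03 under same-sum scaling and to -0.10 to 0.02 with 1 library left out. In PANC1, HRAS came to -0.24 and ARAF to -0.65 under same-sum scaling, and ARAF to -0.03 under GC correction, also with the block. With 1 library left out, HRAS in A549 ranged from -0.02 to 0.24, ARAF in MV3 from -0.15 to 0.02 and MAP2K1 in PANC1 from -0.05 to 0.07. Except for HRAS in PANC1, none of these was called as reported. The cause was not tested.

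Over all genes, the 2533 calls in A549 became 4176 with voom, 1001 with the block, 1624 with the block and GC correction and 1374 to 1624 without 1 of 5 libraries. The 3973 in ES2 became 2612 with the block and 2638 without siI1 replicate 3, and the 3927 in PANC1 became 8939 under same-sum scaling (8844 lower and 95 higher), 2534 with the block and GC correction, 2278 without siC replicate 1 and 2514 without siI1 replicate 1. A549 had the fewest reads. The planned edgeR and DESeq2 tests of the recovered reads were not run, and limma voom was the only test of those reads.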
